A study of Mus musculus with 16 samples.

Results

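Expression of 7 genes of vascular endothelial growth factor (VEGF) signalling was followed in gastrocnemius muscle: the ligands Vegfa, Vegfb and Pgf, the receptors Kdr and Flt1, and the neuropilins Nrp1 and Nrp2. They were chosen by name, with earlier results of these data known. Each was read by the brightest probe set that the platform annotation gives to that gene alone. All 7 had 1 such probe set, among 22180 genes named in this way. The animals were 16 males of the FVB/n strain, all on a high-fat diet (58% fat, with 25.5% of carbohydrate and 16.4% of protein) for 8 weeks until they were killed, aged 16 weeks, and 1 array was run per mouse. Controls (n = 8) had the genotype MxCre-;FoxO1,3,4L/L. They are called wild type in the labels, but their Foxo1, Foxo3 and Foxo4 alleles were flanked by loxP sites like those of the other group. The deletion mice (n = 8) were littermates with Mx1-Cre and the same floxed alleles, and the labels call them FoxO1,3,4 knockdown. Polyinosine:cytidine (pI:pC) was injected 3 times at 4 to 5 weeks of age to start Cre expression from the Mx1 promoter. The labels describe the deletion as directed at endothelium, whereas the Mx1 promoter responds to interferon in many cell types. No control carried Cre, so the presence of Cre and the loss of FoxO cannot be told apart.

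VEGF-A is secreted by muscle fibres and other cells and binds 2 receptor tyrosine kinases of endothelial cells. Kdr (VEGFR2) carries most of the growth and permeability signal, while Flt1 (VEGFR1) binds VEGF-A tightly, signals weakly and holds ligand away from Kdr. VEGF-B and placental growth factor (Pgf) bind Flt1 and not Kdr. The neuropilins are co-receptors without a kinase domain that also bind class 3 semaphorins: Nrp1 acts with Kdr, and Nrp2 acts mainly with Flt4 on veins and lymphatic vessels. The comparison asks how these genes differed in muscle when FoxO transcription factors, which restrain vessel growth, had been deleted under high-fat feeding.

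Both neuropilins rose with deletion, and none of the ligands or kinase receptors passed the test. Nrp2 rose 1.55-fold and Nrp1 rose 1.25-fold. The Nrp1 call lay at the threshold (limma adjusted p = 0.0465) and was lost in 13 of 16 fits without 1 mouse. Of the 7 genes, 6 lay above the filter on dim probe sets (above the array median in at least 8 mice) and were tested. Among the 6, 2 were higher at a limma adjusted p under 0.05, 0 were lower and 4 did not pass. Over all 13601 genes tested, 1.83% passed in either direction, 208 genes higher (1.53%) and 41 lower (0.301%). With arrays centred on the median of the genes tested the split over all genes was 126 higher and 67 lower, and with quantile normalization it was 155 and 59. The median difference of the 6 genes was 0.18 log2 units, against 0.001 over all genes tested, and 5 of the 6 differences were above 0, as were 50.2% of all.

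**Figure D1:**
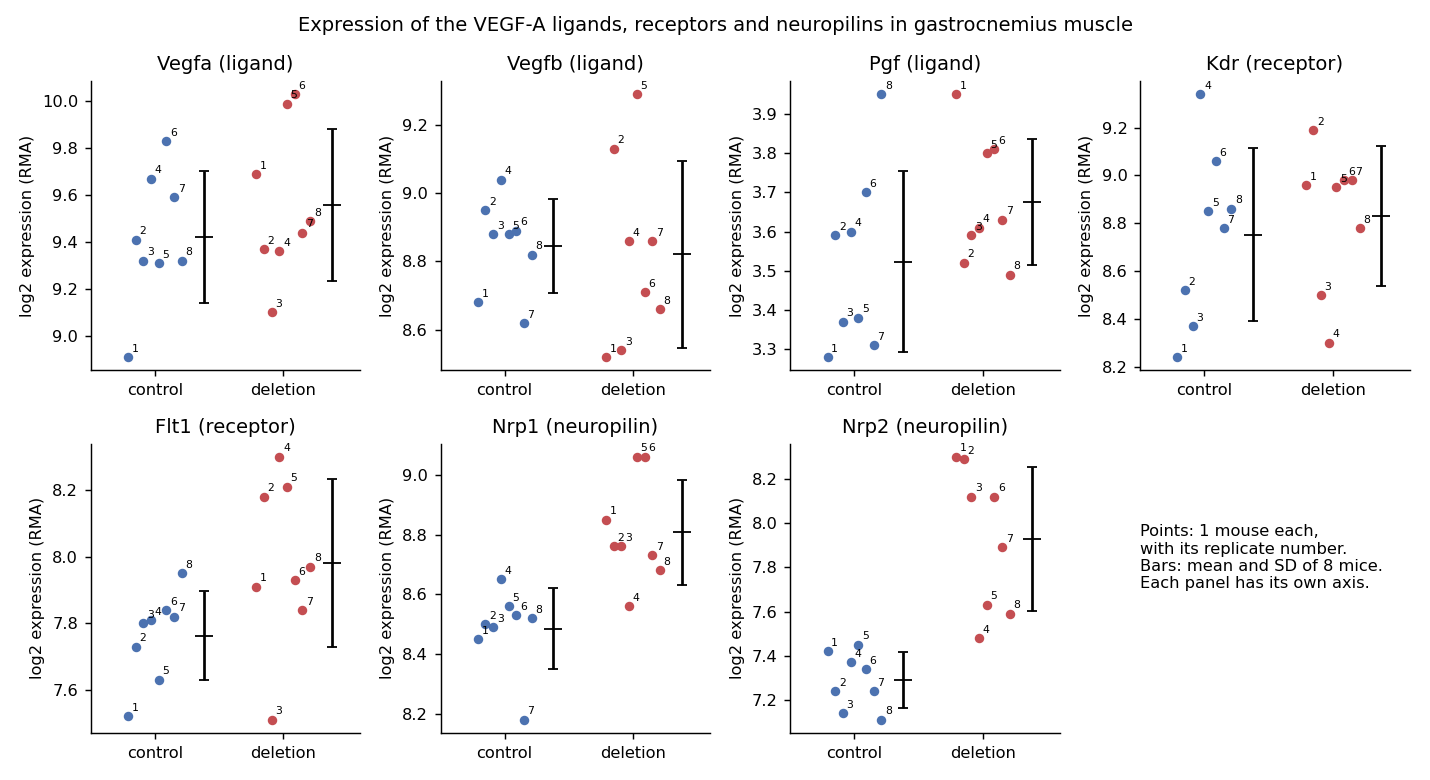
Each panel plots the log2 expression (RMA) of 1 gene in each mouse, controls at the left and deletion mice at the right, with replicate numbers beside the points and the mean and SD of 8 mice as bars. For Nrp2 all 8 deletion mice lie above the highest control at 7.45, for Nrp1 7 of 8 lie above 8.65, and for the other genes the groups overlap broadly.

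Array medians lay between 4.43 and 4.61 log2 units, and correlations between arrays between 0.958 and 0.982. All 8 markers of fast muscle fibres were above the filter, and their mean per mouse ran from 12.63 to 12.94 in controls and from 12.66 to 12.92 with deletion. Of the targeted genes, Foxo1 differed by 0.07 (SE 0.12), Foxo3 by 0.50 (SE 0.14) and Foxo4 by -0.24 (SE 0.10), none past the threshold (limma adjusted p = 0.804, 0.0761 and 0.236). Where these probe sets lie relative to the deleted exons was not analysed here. Alb, the liver transcript of serum albumin, read above 10 in controls 2 and 7 and in deletion mice 1, 2, 4 and 5, and between 4.23 and 8.18 in the other mice. Control 5 had a slow fibre marker mean of 6.13, against 8.35 or more in the other controls. Schwann cell marker means of 7.43 to 7.73 were found in control 1 and deletion mice 2, 4, 6 and 7, against 6.02 to 6.74 in the others. Main results are also given without the 6 mice with high Alb. That fit keeps controls 1, 3, 4, 5, 6 and 8 and only deletion mice 3, 6, 7 and 8. With so few mice a call can be lost there while the difference stays alike.

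The 250 bases before the start site are shown for the neuropilins, which rose, and for the kinase receptors, which did not pass, because loss of a transcription factor was the experimental change. The sequences are those of RefSeq on GRCm38.p6, which held all 7 genes. Capitals mark exact matches, on either strand, to 5 motifs: GTAAACA, bound by FoxO proteins; ACGTG and GCGTG, cores of the hypoxia response element; CCGGAA of ETS factors; and GGGCGG of Sp1. Nrp2 lies on the plus strand (chr1:62703067-62703316), as does Nrp1 (chr8:128358823-128359072). Kdr (chr5:75978456-75978705) and Flt1 (chr5:147726012-147726261) lie on the minus strand.
Nrp2: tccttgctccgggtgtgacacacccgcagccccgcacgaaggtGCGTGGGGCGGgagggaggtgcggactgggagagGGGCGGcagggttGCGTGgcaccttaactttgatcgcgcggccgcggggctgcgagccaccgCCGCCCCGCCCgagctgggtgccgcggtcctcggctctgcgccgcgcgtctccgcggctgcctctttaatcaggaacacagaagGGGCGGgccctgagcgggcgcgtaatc
Nrp1: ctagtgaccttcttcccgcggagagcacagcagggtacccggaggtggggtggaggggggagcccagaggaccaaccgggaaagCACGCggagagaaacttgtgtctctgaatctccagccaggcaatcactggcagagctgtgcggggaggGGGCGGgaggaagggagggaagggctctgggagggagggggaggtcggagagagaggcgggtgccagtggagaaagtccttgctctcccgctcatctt
Kdr: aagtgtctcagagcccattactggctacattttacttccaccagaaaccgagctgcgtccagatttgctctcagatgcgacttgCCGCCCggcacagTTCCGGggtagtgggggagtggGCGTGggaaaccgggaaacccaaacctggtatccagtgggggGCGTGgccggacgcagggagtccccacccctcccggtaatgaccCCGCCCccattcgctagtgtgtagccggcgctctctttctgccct
Flt1: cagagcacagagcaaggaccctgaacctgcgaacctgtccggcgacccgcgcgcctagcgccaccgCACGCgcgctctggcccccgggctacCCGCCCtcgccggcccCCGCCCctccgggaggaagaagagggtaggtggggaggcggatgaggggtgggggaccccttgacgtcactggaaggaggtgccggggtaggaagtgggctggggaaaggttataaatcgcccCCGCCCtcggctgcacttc
GTAAACA was found in 0 of the windows of the 7 genes (250 bases before to 50 after the start, 9 windows, since Vegfa and Pgf have 2 start sites each), and 3.65% of 32851 promoter windows of that length hold it. GGGCGG was found 5 times for Nrp2, with 1 pair of matches that overlap, against 1 match for Nrp1, 2 for Kdr and 3 for Flt1, and 35.7% of all windows hold it. GCGTG was found 2 times for Nrp2 and for Kdr and 1 time for Nrp1 and for Flt1 (32.4% of all windows). CCGGAA was found 1 time, for Kdr (14.9%). ACGTG was found in none of these 4 windows, and 1 time at the second start site of Vegfa (19.6%). Matches describe the letters of the window and say nothing about binding in these mice.

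Nrp2, the co-receptor of veins and lymphatic vessels, separated the groups completely. The lowest, median and highest controls were at 7.11, 7.29 and 7.45, and the deletion mice were at 7.48, 8.00 and 8.30. Every deletion mouse thus lay above every control, although deletion mouse 4 did so by a narrow margin. The means were 7.29 ± 0.12 and 7.93 ± 0.33 (SD, n = 8 each), and the difference of 0.64 (SE 0.12, 95% interval 0.40 to 0.88) passed limma's test over all genes (adjusted p = 0.0101). The exact two-sided permutation p was 0.000155, the smallest that 8 against 8 mice can give. Groups without overlap and higher with deletion were found for 33 of 13601 genes (0.243%), and by p Nrp2 ranked 36 among all genes. The spread was wider with deletion, with a variance 6.9 times that of the controls: mice 1, 2, 3 and 6 read 8.12 or more, mouse 7 read 7.89, and mice 4, 5 and 8 read between 7.48 and 7.63. The call held in each of 16 fits that left out 1 mouse (differences 0.58 to 0.70). It was lost with a test per gene that allows unequal variances (Benjamini-Hochberg adjusted p = 0.0739) and with endothelial markers as covariate, given with those markers. Without the 6 mice with high Alb the difference was 0.62 and no longer passed (limma adjusted p = 0.153), in a fit that called 7 genes in all.

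Nrp1, the co-receptor of Kdr, was higher by a smaller amount. Its lowest, median and highest values were 8.18, 8.51 and 8.65 among controls, and with deletion they were 8.56, 8.76 and 9.06. Deletion mouse 4, at 8.56, lay inside the control range, and the other 7 lay above every control, an arrangement met or exceeded by 1.33% of the genes tested. The means were 8.49 ± 0.14 and 8.81 ± 0.18 (SD, n = 8 each), and the difference of 0.32 (SE 0.08, 95% interval 0.15 to 0.49) passed the threshold closely (limma adjusted p = 0.0465; exact permutation p = 0.000466). The call lay at the threshold, while the difference changed little when 1 mouse was left out. It was kept without control 4, deletion mouse 4 or deletion mouse 8 and was lost without each of the other 13 mice in turn, with differences of 0.28 to 0.33 and limma adjusted p-values of 0.0627 to 0.102 in those fits. It was also lost without the 6 mice with high Alb (difference 0.27, limma adjusted p = 0.285) and with arrays centred (0.27, limma adjusted p = 0.0864). Relative to Nrp1, Nrp2 was higher by a further 0.32 in the mean deletion mouse, and by more than in any control in 5 of 8. Deletion mouse 5 ran the other way (-0.24), with Nrp1 at the top of its group (9.06) and Nrp2 near the bottom (7.63). Whether the 2 neuropilins differed in their response was not tested.

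**Figure D2:**
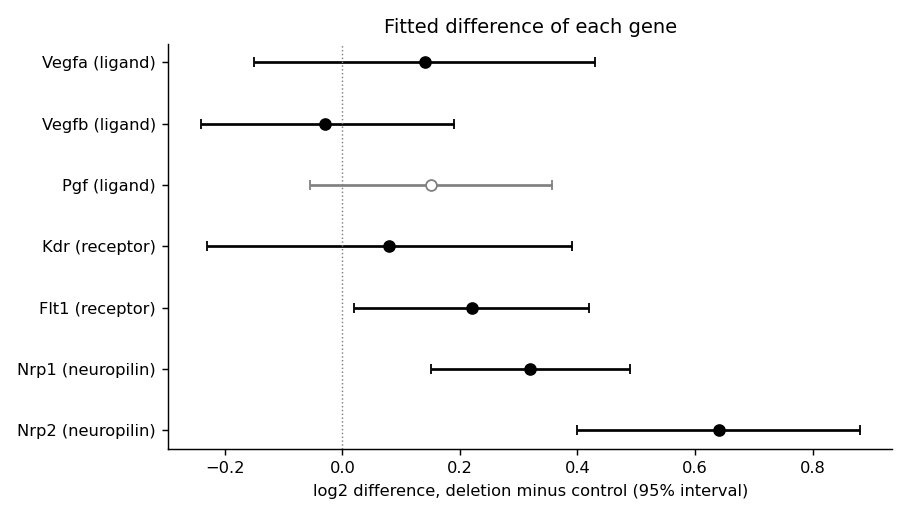
Points give the fitted log2 difference (deletion minus control) of each gene and bars its 95% interval, with Pgf drawn open and grey because it lay under the filter and comes from the fit of all 22180 genes. The intervals of Nrp1 (0.15 to 0.49) and Nrp2 (0.40 to 0.88) lie above 0, and that of Flt1 (0.02 to 0.42) just does, without passing the adjusted threshold.

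Flt1, the receptor that holds VEGF-A away from Kdr, was nominally higher. It read 7.52, 7.81 and 7.95 at the lowest, median and highest control, and 7.51, 7.95 and 8.30 with deletion. Deletion mice 2, 4 and 5 stood apart at 8.18 or more, while deletion mouse 3 was the lowest of all 16 mice. The difference of 0.22 (SE 0.10, 95% interval 0.02 to 0.42) had an exact permutation p of 0.0479 and did not pass over all genes (limma adjusted p = 0.253). An unadjusted limma p under 0.05 was found for 17.3% of the genes tested. Without the mice with high Alb, which include all 3 high deletion mice, the difference was 0.05 (SE 0.11).

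Kdr, the main signalling receptor, varied more between mice than between groups. Controls ran from 8.24 through a median of 8.81 to 9.34, and deletion mice from 8.30 through 8.96 to 9.19, so that the deletion mice lay wholly inside the control range. The difference was 0.08 (SE 0.15, limma adjusted p = 0.832), with a 95% interval of -0.23 to 0.39, that is from 0.851-fold to 1.31-fold. Deletion mouse 4 combined the lowest Kdr value of its group (8.30) with the highest Flt1 value of all mice (8.30). Set against the control mean of each gene, Kdr minus Flt1 was -0.99 in that mouse, between -0.24 and 0.15 in the other deletion mice and between -0.41 and 0.54 in the controls.

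Among the ligands, Vegfa had a lowest, median and highest control of 8.91, 9.36 and 9.83, with deletion mice at 9.10, 9.47 and 10.03. Deletion mice 5 and 6 lay above every control and the other 6 lay within the control range. The difference of 0.14 (SE 0.14, 95% interval -0.15 to 0.43) did not pass (limma adjusted p = 0.645, exact permutation p = 0.372). Vegfb, which is known for its expression in muscle and heart, read 8.62, 8.88 and 9.04 among controls against 8.52, 8.78 and 9.29 with deletion. Its deletion mice ran past both ends of the control range, with 2 above and 2 below, at a variance 4.04 times that of the controls. The mean difference was -0.03 (SE 0.10, 95% interval -0.24 to 0.19, limma adjusted p = 0.926), and its sign turned without control 4, deletion mouse 1 or deletion mouse 3, where it ran up to 0.02. Pgf, a ligand that is low in resting tissue, was below the array median in all 16 mice and was not tested with the others. Its controls were at 3.28, 3.49 and 3.95 and its deletion mice at 3.49, 3.62 and 3.95, so the groups overlapped. In the fit of all 22180 genes its difference was 0.15 (SE 0.10, 95% interval -0.06 to 0.36, limma adjusted p = 0.525).

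Set side by side, the roles differed in size of change, as a description without a test. As deviation from the control mean of each gene, averaged over the genes of a role, the ligands ran from -0.30 to 0.21 in the controls and from -0.19 to 0.43 in the deletion mice. The receptors ran from -0.38 to 0.32 and from -0.25 to 0.43, and the neuropilins from -0.17 to 0.13 and from 0.13 to 0.70, the lowest deletion mouse and the highest control being equal at this rounding. The mean difference was 0.09 for the ligands, 0.15 for the receptors and 0.48 for the neuropilins. Without Pgf, which lay under the filter, the ligands differed by 0.06, with 4 of 8 deletion mice above 0, and ligands minus receptors by -0.09. With Pgf, ligands minus receptors differed by -0.06 between the groups, and single mice had an SD of 0.12 among controls and 0.15 among deletion mice. These SDs are spreads of single mice and not the uncertainty of the difference. Neuropilins minus receptors were above 0 in all 8 deletion mice (0.09 to 0.80) and ran from -0.22 to 0.42 in the controls. Deletion mouse 4 was the lowest of its group for the neuropilins, and deletion mouse 3 was the lowest for both the ligands and the receptors.

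**Figure D3:**
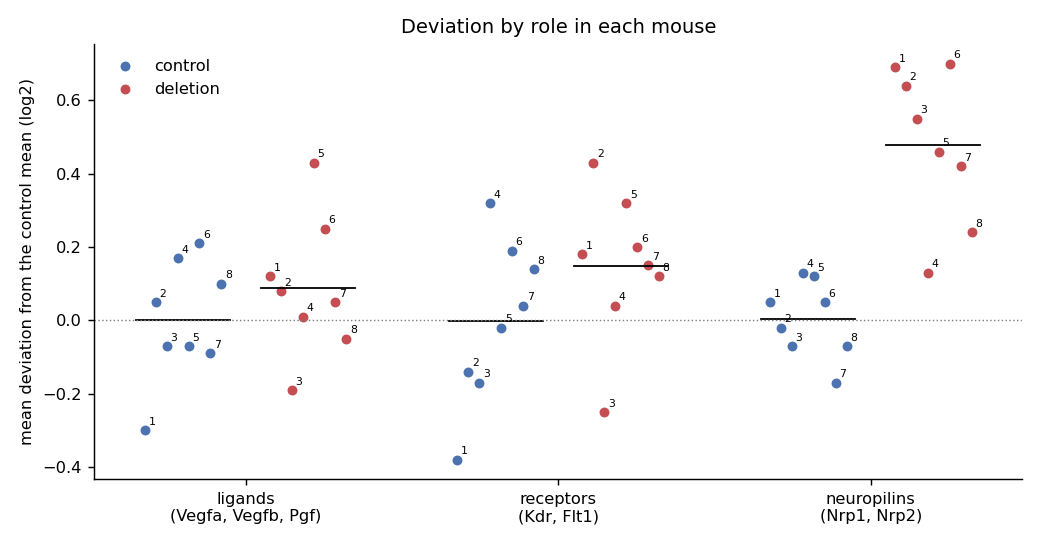
Each point is 1 mouse with its replicate number, plotted as the mean log2 deviation from the control mean over the ligands, the receptors or the neuropilins, with lines at the group means. The deletion mean is 0.09 for ligands, 0.15 for receptors and 0.48 for neuropilins. Only for the neuropilins do all 8 deletion mice lie above every control before rounding, with deletion mouse 4 and control 4 drawn level at 0.13.

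Within the groups, the correlation between 2 of the 6 tested genes was above 0 for 12 of 15 pairs in the controls and 11 of 15 with deletion. Of 30 correlations (15 pairs in each group of 8 mice), 0 passed a Benjamini-Hochberg adjusted exact permutation test with Pearson's r or with Spearman's rho, and 4 had an unadjusted exact p of r under 0.05. The strongest was Vegfb with Nrp1 in the controls (r = 0.85, exact permutation p = 0.00218, adjusted p = 0.0655; rho = 0.69, exact permutation p = 0.0694, adjusted p = 0.496). Without the 2 mice farthest from the Vegfb median r was 0.69, and in the deletion mice it was 0.25. Vegfa and Nrp1 had r = 0.83 in the deletion mice (exact permutation p = 0.012, adjusted p = 0.179) with rho = 0.69 (exact permutation p = 0.0694), and r was 0.07 in the controls. Without the 2 mice farthest from the Vegfa median r in the deletion mice was 0.31. Leaving out such mice narrows the range of the first gene, so a fall in r does not show that it rested on them. Vegfa and Kdr, ligand and main receptor, had r = 0.78 in the controls (exact permutation p = 0.0224, adjusted p = 0.224; rho = 0.62, exact permutation p = 0.115) and 0.48 in the deletion mice. Flt1 and Nrp2 ran in opposite directions, with r = -0.72 in the controls (exact permutation p = 0.0433, adjusted p = 0.324; rho = -0.60, exact permutation p = 0.132) and -0.44 in the deletion mice. Nrp1 and Nrp2, both higher with deletion, had r = 0.26 among controls and 0.28 among deletion mice. The latter was 0.89 without the 2 mice farthest from the Nrp1 median, a value from fewer mice over a narrower range.

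The genes most alike in pattern were sought for each tested gene among 12731 other named genes, by Pearson's r over 16 mice after each group's mean was subtracted. These are the highest of many values and are given as a description, without a test. Vegfa ran most closely with Ppargc1a (r = 0.87; 0.79 in controls, 0.94 with deletion), which encodes the coactivator PGC-1alpha, then with Mad2l1bp (0.86) and Perm1 (0.86), a regulator induced by PGC-1 in muscle. Control 1, the lowest Vegfa value at 8.91, also had the lowest Ppargc1a value at 9.15, and deletion mouse 6 had the highest of both, at 10.03 and 10.65. Vegfb ran with 3 genes of mitochondrial proteins: Mtfp1 (r = 0.94) of mitochondrial fission, Phb2 (0.93), a prohibitin of the inner membrane, and Samm50 (0.93) of the outer-membrane sorting machinery. Flt1 ran with Bnip3 (r = 0.93; 0.85 in controls, 0.95 with deletion) and Egln3 (0.86; 0.59 and 0.94), both known as targets of hypoxia-inducible factor, and with Pank4 (0.86). The 3 deletion mice with high Flt1 were those with Bnip3 at 9.62 or more, while every other mouse read 9.31 or less. Kdr ran with Ankrd52 (r = 0.92), the endothelial proton-sensing receptor gene Gpr4 (0.91) and Armc1 (0.90). Nrp1 ran with Gprc6a (r = 0.87), Psors1c2 (0.83) and Cptp (0.82). Nrp2 ran with Zbtb6 (r = 0.84), Plxnd1 (0.84), a semaphorin receptor of endothelium, and Vav2 (0.83), but mainly in the deletion mice (0.93, 0.92 and 0.91, against 0.32, 0.55 and 0.66 in the controls). Of these 18 genes 0 passed the test between the groups.

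**Figure D4:**
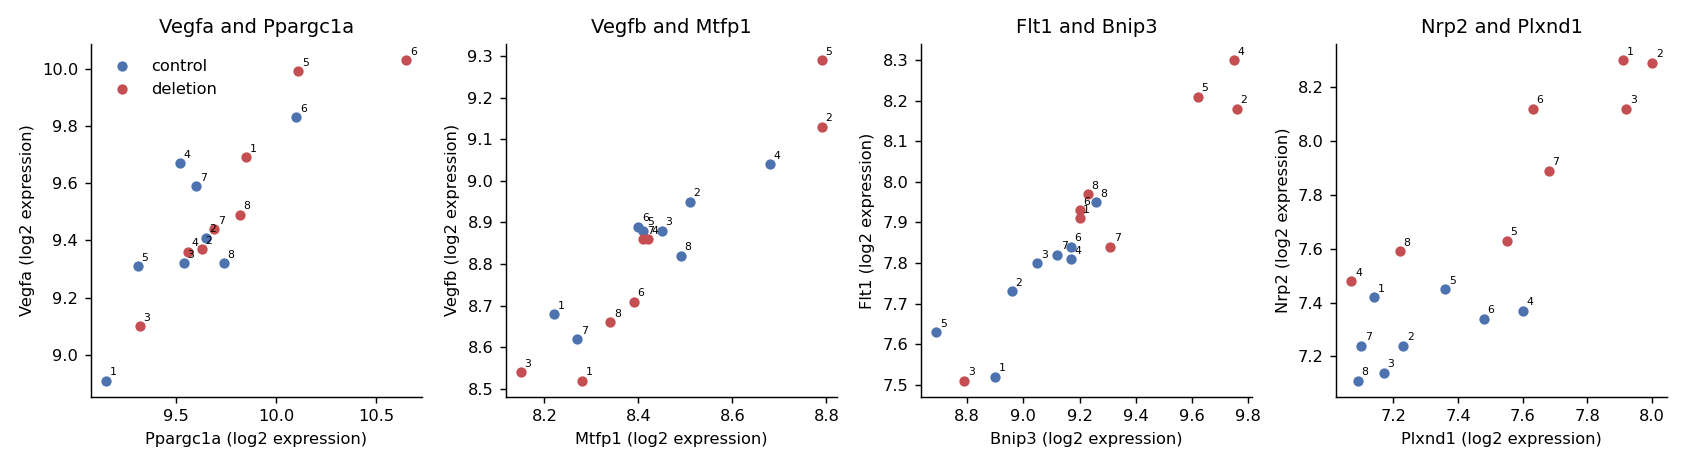
Log2 expression of Vegfa, Vegfb, Flt1 and Nrp2 (vertical axes) is plotted against that of Ppargc1a, Mtfp1, Bnip3 and Plxnd1 (horizontal axes), 1 point per mouse with its replicate number. In the first 3 panels both groups lie along a common band, and in the last the deletion mice lie above the controls at like Plxnd1 values, with the highest Plxnd1 value, 8.00, in deletion mouse 2.

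The rest of the pathway showed single higher genes and 0 lower ones. Of 36 measured genes of VEGF receptor signalling, 3 rose, 0 fell and 33 did not pass, with a median difference of 0.09. They were Ptprb, the receptor phosphatase VE-PTP (8.92 ± 0.20 against 9.65 ± 0.31, difference 0.73, SE 0.12, limma adjusted p = 0.00544), the Src family kinase Fyn (0.46, SE 0.09, limma adjusted p = 0.0146) and Iqgap1, a scaffold that binds Kdr (0.53, SE 0.11, limma adjusted p = 0.0175), the last named after its value was seen. Of 18 measured genes that VEGF induces in endothelium, only Apln passed, with a median of 0.16 and 17 of 18 differences above 0. Apln, which encodes apelin, a peptide of growing vessels, was higher by 1.19 (SE 0.19, limma adjusted p = 0.00564). Its control mean of 4.36 lay beneath the mean control array median of 4.55, so the size of its difference rests on dim control values. The filter asked for 8 mice of any group, so the deletion mice alone could bring Apln past it. With the filter raised to the 75th percentile of each array, 8 genes of this list were tested and 0 passed. Of 14 regulators of Vegfa transcription 1 rose, Hif1a of the hypoxia response, by 0.41 (SE 0.08, limma adjusted p = 0.014), and the median of the list was -0.03. Each of these 5 calls held in all 16 fits without 1 mouse and none did without the 6 mice with high Alb, where the differences were 0.54, 0.35, 0.57, 0.86 and 0.34. With the endothelial marker mean as covariate 0 genes of these 3 lists passed by limma, and with an unequal-variance test per gene the counts were 1 of 36, 1 of 18 and 0 of 14.

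Other binding partners were also higher or did not pass. Of 11 measured semaphorins and plexins, which share the neuropilins as co-receptors, 0 passed by limma and the median was 0.17. An unadjusted limma p under 0.05 was found for 3 of the 11, and for 17.3% of all genes tested. The smallest p was that of Plxnd1 (7.27 ± 0.19 against 7.62 ± 0.34, difference 0.35, SE 0.13, limma adjusted p = 0.16). Of 11 extracellular proteins that bind or release VEGF 1 rose, the basement membrane proteoglycan gene Hspg2, at 0.43 (SE 0.11, limma adjusted p = 0.0482), with a list median of 0.32 and all 11 differences above 0. This call was kept only without control 4, deletion mouse 3 or deletion mouse 8 (limma adjusted p up to 0.103 in the other 13 fits), and with arrays centred it was lost (limma adjusted p = 0.0568). In the VEGF-C arm, the partners of Nrp2, Flt4 differed by 0.39 (SE 0.08, limma adjusted p = 0.0224), Vegfc by 0.50 (SE 0.12, limma adjusted p = 0.0382) and Vegfd by 0.10 (SE 0.12, limma adjusted p = 0.712). The Vegfc call was kept only without control 4 or without deletion mice 3, 4, 7 or 8, with limma adjusted p-values up to 0.0757 in the other 11 fits, and was lost with arrays centred (limma adjusted p = 0.0678), while the Flt4 call held in all 16. With no filter, quantile normalization, the replicate number as a block or slow fibre markers as covariate, 1 gene of the VEGF-C arm passed and 0 of the 11 extracellular proteins did. With an unequal-variance test or the endothelial covariate 0 genes of both lists passed. None of these calls held when the mice with high Alb were left out (Hspg2 0.38, Flt4 0.28, Vegfc 0.51).

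Markers of endothelial cells were higher in the deletion group. In whole muscle, more cells of a type and more RNA per cell cannot be told apart. The marker lists were chosen with earlier results of these data known. Where 1.53% of all genes tested rose, 12 of 22 endothelial markers rose, 0 fell and 10 did not pass, with a median difference of 0.46. Their mean per mouse ran from 6.60 to 6.89 in the controls and from 6.66 to 7.47 in the deletion mice, and 0 of the 22 were under the filter. Deletion mouse 8 (6.66) lay inside the control range and mouse 3 (6.87) just inside it. From the highest marker mean down, deletion mice 5 (7.47), 2 (7.29), 6 (7.21) and 4 (7.20) had Nrp2 at 7.63, 8.29, 8.12 and 7.48. Deletion mice 1 (7.09), 7 (7.02), 3 (6.87) and 8 (6.66) had Nrp2 at 8.30, 7.89, 8.12 and 7.59. The part of endothelial cells in the Nrp2 difference was not tested. Erg, a transcription factor of endothelium, was higher by 0.52 (SE 0.08, limma adjusted p = 0.00276) and Clec14a, an endothelial surface lectin, by 0.76 (SE 0.13, limma adjusted p = 0.00617), while the endothelial receptors Kdr and Flt1 differed by 0.08 and 0.22. With the marker mean as a covariate, which itself differs between the groups, the differences were 0.59 for Nrp2 (SE 0.18, limma adjusted p = 0.31), 0.15 for Nrp1 (SE 0.11), -0.02 for Flt1, -0.20 for Kdr and -0.17 for Vegfa, and 8 genes passed over the whole table. The count of 12 fell to 8 or fewer without any 1 of controls 1, 2, 3, 5, 6 and 7 or deletion mice 1, 2, 4, 5 and 6 (lowest 4, without deletion mouse 6), was 15 without deletion mouse 8, and was 1 without the mice with high Alb, where the median was 0.24. With all mice, the count was 9 with centred arrays or quantile normalization. It was 8 with no filter, the replicate block or the slow fibre covariate, and 3 with the unequal-variance test.

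**Figure D5:**
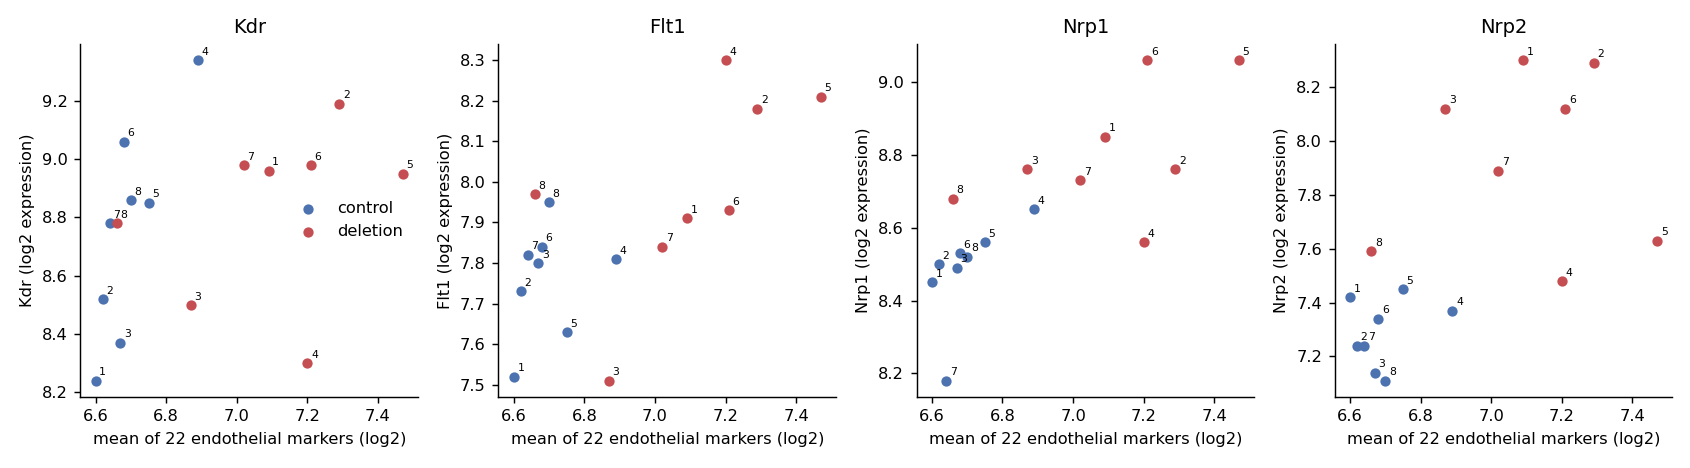
Log2 expression of Kdr, Flt1, Nrp1 and Nrp2 (vertical axes) is plotted against the mean log2 value of 22 endothelial markers (horizontal axis), 1 point per mouse with its replicate number. The controls lie at marker means of 6.60 to 6.89. Deletion mouse 4, with a marker mean of 7.20, has the lowest Kdr, Nrp1 and Nrp2 values of the deletion group, and deletion mouse 2, at 7.29, has Kdr at 9.19 and Nrp2 at 8.29.

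Macrophage markers were mostly higher too, with a median difference near that of the endothelial markers (0.49 and 0.46), and single markers of other cell types passed. An unadjusted limma p under 0.05 was found for 9 of 13 macrophage markers and for all 3 tested markers of neutrophils and red cells. The share over all genes tested was 17.3%. Of 13 macrophage markers 4 rose, 0 fell and 12 differences were above 0, with a median of 0.49: Vsig4 by 1.17 (SE 0.21), Mertk by 0.42 (SE 0.08) and, named after their values were seen, C1qa by 0.56 (SE 0.11) and Itgam by 0.69 (SE 0.17). The Itgam call held in 5 of the 16 fits that omitted a mouse, and without the mice with high Alb 0 of the 4 held. Their mean per mouse ran from 5.98 to 6.68 in the controls and from 6.31 to 7.58 in the deletion mice, highest in mice 3 (7.58) and 1 (7.30), whose Nrp2 values were 8.12 and 8.30. Deletion mice 6 (6.79) and 4 (6.72) lay just above the control range, with Nrp2 at 8.12 and 7.48. Deletion mice 7 (6.62), 2 (6.61), 5 (6.46) and 8 (6.31) lay inside it, with Nrp2 at 7.89, 8.29, 7.63 and 7.59. Of 5 lymphatic markers 1 rose, 0 fell and 4 did not pass, with a median of 0.17. The 1 was Lyve1, at 0.72 (SE 0.11), and at 0.77 without the mice with high Alb (limma adjusted p = 0.164). The list mean ran from 5.61 to 6.26 in the controls and from 5.86 to 6.55 in the deletion mice, lowest in deletion mouse 8. Of 3 tested markers of neutrophils and red cells, S100a8 rose by 1.28 (SE 0.27), with list means of 4.34 to 4.92 and 4.73 to 5.93. Its control mean of 4.45 lay beneath the mean control array median of 4.55, so the size of its difference rests on dim control values. The deletion mice alone could also bring S100a8 past the filter, and with the filter at the 75th percentile 0 genes of this list were tested. Without the mice with high Alb S100a8 no longer passed (limma adjusted p = 0.331). With the endothelial marker mean as covariate 0 genes of these 3 lists passed by limma. The part of these cells in the neuropilin result was not tested. In the lists of pericytes and smooth muscle (9 tested, median 0.17), fibroblasts (8, 0.18), Schwann cells (4, 0.69), adipocytes (5, 0.21), satellite cells (4, -0.14), lymphocytes (4, -0.05), slow fibres (8, 0.27), fast fibres (8, 0.02) and liver transcripts (5, 0.51), 0 genes passed by limma. The slow fibre median was -0.04 without control 5, the adipocyte median 0.04 without deletion mouse 7, and the liver median -0.07 without the mice with high Alb. Unadjusted limma p-values under 0.05, found for 17.3% of all genes tested, were few in these lists. They were met by 4 of 9 pericyte and smooth muscle genes (smallest for Pdgfrb, 0.27, SE 0.08). Of the 8 fibroblast genes 1 had such a p (Mfap5, 0.50, SE 0.19), as did 2 of 4 Schwann cell genes (smallest for Pmp22, 1.03, SE 0.33).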

How the data were processed

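RNA of 16 gastrocnemius muscles was measured with 1 array per mouse, from 250 ng total RNA per the labels. Each deposited value is the log2 level of a probe set. The authors used RMA and oligo, per the submitters' processing notes, and the log base was read from the range of 0.33 to 13.84. No array build or scan date was given in the sources used here, and no batch was examined. Of 41345 probe sets, 23521 had 1 gene symbol, 1814 several and 16010 none. A named probe set was kept if above the array median in at least 8 mice, the brightest per gene, which left 13601 genes.

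The 2 genotypes were compared in limma 3.58.1 (lmFit, eBayes; R 4.3.3), two-sided, with Benjamini-Hochberg adjustment over all genes tested and a threshold of 0.05. Single values were also tested by exact permutation over 12870 splits. Precision is limited by the number of mice. The procedure was tested on simulated data.

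The labels call the mice biological replicates, and no 2 arrays correlated above 0.982. The members and gene lists were chosen with earlier results of these data known. Named genes are the 7 members, the 3 most alike genes of each tested member, the targeted genes, and per list up to 2 genes past the threshold by smallest p in each direction, or the 1 with the smallest p. Genes outside this rule are marked. Alternatives changed the filter, scaling, variance model, array weights, test, replicate block, covariates, threshold and the mice included. Leaving out the mice with Alb above 10, and the ligand mean without Pgf, were added after seeing the data. Averaging probe sets by gene was also run, but no member had another probe set to use in place of its own.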

Additional observations from a re-analysis of the deposited data

Results flagged for a closer look

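Control mouse 7 stood below the other controls for Nrp1, at 8.18 against 8.45 for the next lowest, a gap of 0.57 of the group's range. This was 1 of 14 groups of 8 mice examined, and chance flags about 1 in 20. Without this mouse the Nrp1 difference was 0.28 (limma adjusted p = 0.0829).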

How the results depend on the processing

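Nrp2 stayed higher in every fit run, at 0.58 to 0.70, and lost its call with an unequal-variance test per gene (0.64), with the endothelial marker mean as covariate (0.59) and without the mice with high Alb (0.62). Nrp1 stayed higher, at 0.28 to 0.36 without 1 mouse. It lost its call with no filter, the unequal-variance test, the replicate block and the slow fibre covariate (0.32 each), with centred arrays or without the mice with high Alb (0.27 each) and with the endothelial covariate (0.15). That covariate turned the signs of Vegfa (-0.17), Kdr (-0.20) and Flt1 (-0.023), none past the threshold in any fit. Vegfb ran from -0.093 to 0.0165 without 1 mouse. Genes of the family past the threshold numbered 1 with no filter, centred arrays, the replicate block or the slow fibre covariate, 0 with the unequal-variance test, the endothelial covariate or without the mice with high Alb, and 1 to 2 without 1 mouse. Over all genes, 249 passed, against 137 with no filter, 68 with the unequal-variance test, 452 with the first residual component, 8 with the endothelial and 146 with the slow fibre covariate, 7 without the mice with high Alb, 505 at an adjusted p under 0.10, and 107 to 680 without 1 mouse. Ligands against receptors stayed between -0.11 and -0.02. The replicate number is only a number here: 4 of 8 same-numbered pairs deviated together with a correlation over 0.1 (range -0.083 to 0.250), 3 of 8 controls correlated best with their own number, and with the replicate block 213 genes passed. The cause of these shifts was not tested. Probe sets near the background, Pgf here, set the limit of what the arrays can show.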
